A study of Mus musculus with 28 samples.

Results

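The 10 inflammasome and interleukin-1 genes described here are the sensors Nlrp3, Nlrc4, Naip2 and Naip5, the adaptor Pycard, the protease Casp1, the cytokines Il1a, Il1b and Il18, and the receptor antagonist Il1rn. They were chosen by function, and each was taken as the probe set that the array's platform table pairs with that gene symbol alone. All 10 had 1 such probe set, all 10 lay above the low-signal floor in all 28 arrays, and all 10 were tested among 13512 genes. The arrays measured messenger RNA in resident peritoneal macrophages of C57BL/6 mice in 7 groups of 4 biologically independent samples. The uninjected groups were wild-type mice (WT) and ATF7 knockout mice (KO), whose age, exon deletion and breeding the labels do not give. The injected groups were all wild-type and received an intravenous injection of PBS, LPS, PGN, imiquimod (IMQ) or β-glucan (BG). They were labelled as sampled at 3 weeks, and the protocol gives injection at 7 to 8 weeks of age and collection 3 to 4 weeks later, at 10 to 12 weeks. All cells, controls included, were kept overnight in serum-free medium and washed free of non-adherent cells, so every value is from cultured adherent cells. No group combined the knockout with an injection, and the labels name no further stimulus in culture.

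Inflammasomes are cytosolic complexes in which a sensor recruits the adaptor ASC, encoded by Pycard, which in turn gathers and activates caspase-1. NLRP3 responds to many forms of cell damage, whereas NAIP5 and NAIP2 bind bacterial flagellin and the rod protein of secretion systems, respectively, and then engage NLRC4. Caspase-1 cuts pro-IL-1β and pro-IL-18 into their secreted forms and opens the gasdermin D pore. Pro-IL-1α is active without that cut, and the IL-1 receptor antagonist occupies the same receptor without signalling. In macrophages Nlrp3 and Il1b are known for induction through NF-κB, a step called priming, so messenger RNA levels describe the supply of these proteins and not their activation.

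The targeted gene was checked first. The Atf7 probe set with the larger change read between 6.94 and 7.19 (log2 signal) in the 4 KO arrays and between 9.85 and 10.09 in the 4 WT arrays. A further Atf7 probe set read 10.25 to 10.34 in KO and 10.64 to 10.80 in WT. Arrays of 1 group correlated with a median r of 0.991 to 0.996 over all genes tested. PGN arrays correlated with IMQ arrays (median r = 0.9953) as closely as with each other (median r = 0.9949). The labels do not say whether those groups were processed together. Values are log2 of the deposited signal, and a difference is the first group minus the second, with its 95% interval and an adjusted p from limma over all 13512 genes. A gene is called higher or lower when that adjusted p is below 0.05. The 4 samples of a group are the only replicates. The p-values set a difference against the spread between samples within groups, pooled over all 7 groups and steadied with the spread of other genes. In such bulk RNA, fewer cells of a type and less RNA per cell cannot be told apart.

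**Figure D1:**
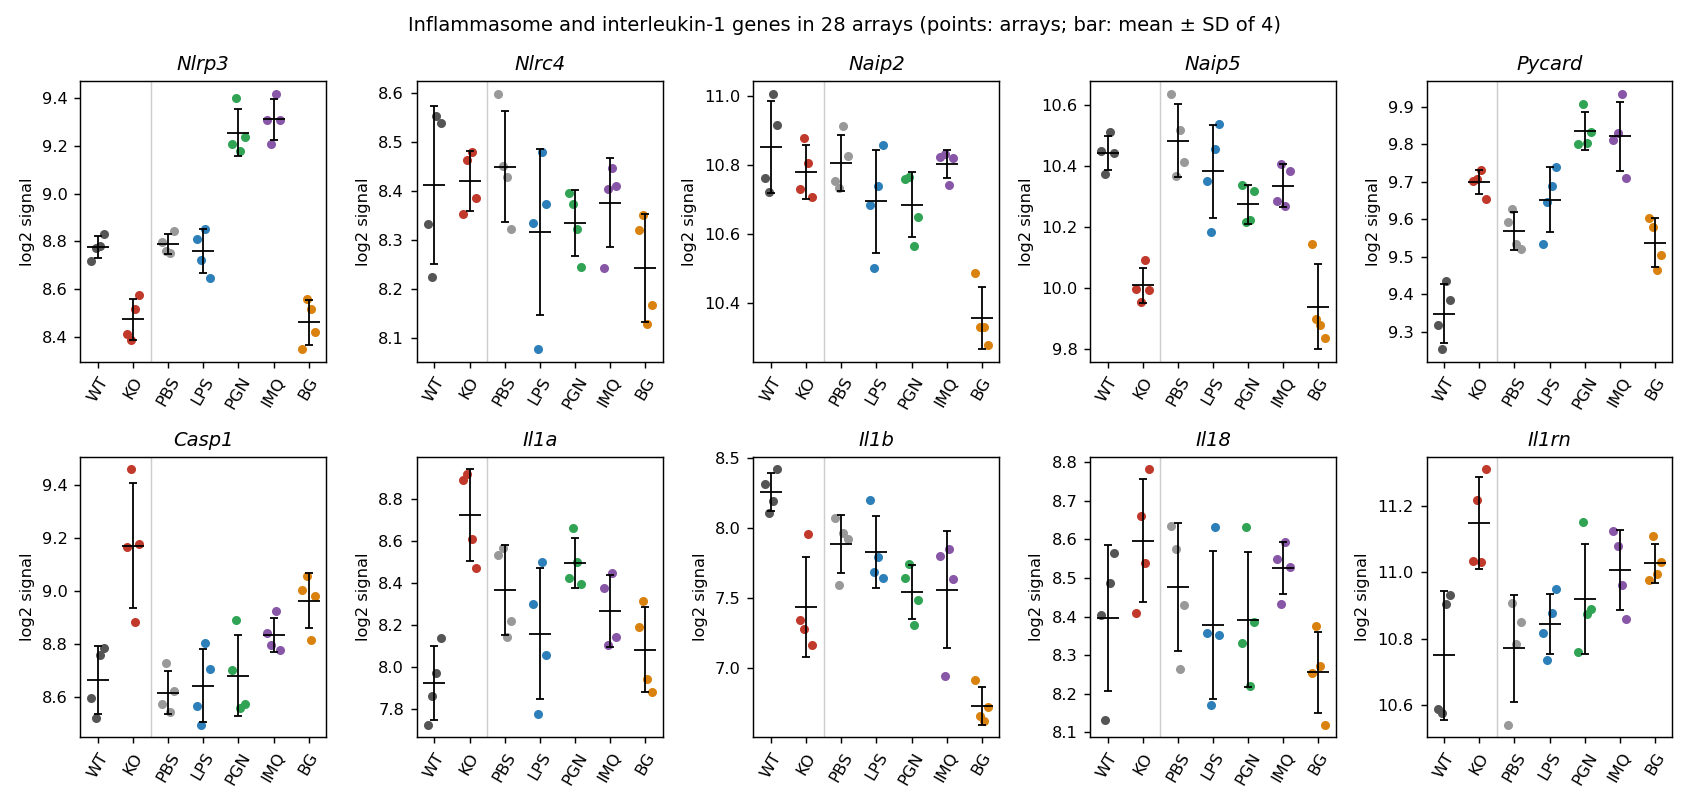
Log2 signal of each of the 10 genes in all 28 arrays, 1 panel a gene; points are arrays, and bars are the mean and SD of the 4 arrays of a group, with the grey line dividing the uninjected groups from the injected ones. Nlrp3 stands highest in the PGN and IMQ arrays (9.18 to 9.42) and lowest in the KO and BG arrays (8.35 to 8.57), and Il1b reads 8.11 to 8.42 in WT and 6.62 to 6.92 in BG.

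Nlrp3, the sensor of cell damage, took 3 levels across the 7 groups. Its log2 signal was 8.72, 8.77, 8.78 and 8.83 in WT, 8.80, 8.76, 8.75 and 8.84 in PBS and 8.81, 8.72, 8.85 and 8.65 in LPS, and these 3 groups overlapped. The PGN arrays read 9.21, 9.40, 9.18 and 9.24, the IMQ arrays 9.31, 9.21, 9.42 and 9.31, the KO arrays 8.41, 8.39, 8.52 and 8.57 and the BG arrays 8.35, 8.56, 8.52 and 8.42. Every PGN and IMQ array was thus above every array of the other 5 groups, and every KO and BG array was below every array of the other 5. Nlrp3 was 1.38-fold higher after PGN (0.47, adjusted p = 4.24e-05) and 1.44-fold higher after IMQ (0.52, adjusted p = 3.57e-06) than after PBS. It was 1.26-fold lower after BG than after PBS (-0.33, adjusted p = 5.93e-05) and 1.23-fold lower in KO than in WT (-0.30, adjusted p = 0.000236). All 4 differences exceeded the spread within groups, whose SDs ran from 0.041 to 0.099.

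Naip5 and Naip2, sensors of bacterial flagellin and secretion systems, lie in a cluster of near-identical copies, so the assignment of signal among Naip genes is uncertain. Their promoter windows are shown because these 2 share a run of bases there. The window of Naip6, from the same cluster, shares no run longer than 8 bases with Naip2 or 7 with Naip5, within the 7 to 11 bases found between the windows of the other pairs of genes compared. Each window runs from 250 bases before the RefSeq transcription start to 50 bases from it on (GRCm38.p6, minus strand; Naip2 chr13:100202073-100202372, Naip5 chr13:100247287-100247586), and the capitals mark the longest run that both share, of 34 bases.
Naip2: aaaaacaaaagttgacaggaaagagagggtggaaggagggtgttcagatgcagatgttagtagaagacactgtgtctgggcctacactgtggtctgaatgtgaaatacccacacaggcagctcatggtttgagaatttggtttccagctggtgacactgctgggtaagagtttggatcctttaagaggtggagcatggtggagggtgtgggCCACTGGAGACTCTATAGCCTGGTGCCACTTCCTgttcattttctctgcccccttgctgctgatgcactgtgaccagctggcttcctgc
Naip5: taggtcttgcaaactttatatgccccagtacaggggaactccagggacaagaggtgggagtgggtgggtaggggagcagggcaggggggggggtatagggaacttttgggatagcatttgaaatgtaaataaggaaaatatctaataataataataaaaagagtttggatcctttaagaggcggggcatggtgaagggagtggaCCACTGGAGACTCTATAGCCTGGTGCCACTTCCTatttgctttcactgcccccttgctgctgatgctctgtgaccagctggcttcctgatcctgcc

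Naip5 read 10.45, 10.37, 10.51 and 10.44 in WT and 9.996, 9.95, 10.09 and 9.99 in KO, and 10.64, 10.37, 10.52 and 10.41 in PBS and 10.14, 9.90, 9.88 and 9.84 in BG. No array of KO or BG reached the lowest WT or PBS array. It was 1.35-fold lower in KO (-0.43, adjusted p = 2.3e-05) and 1.46-fold lower after BG (-0.54, adjusted p = 5.94e-07). Naip2 went with it in 1 of these comparisons. After BG it read 10.49, 10.33, 10.33 and 10.28 against 10.75, 10.73, 10.91 and 10.82 in PBS, a difference of -0.45 (adjusted p = 7.28e-06), and the groups did not overlap. In KO, Naip2 averaged 10.78 ± 0.078 (SD, n = 4) against 10.85 ± 0.13 in WT, a difference of -0.071 that missed the threshold (adjusted p = 0.485; 95% interval -0.21 to 0.067). Nlrc4, the partner of both NAIPs, differed by 0.0080 between KO and WT (adjusted p = 0.959) and by -0.21 between BG and PBS (adjusted p = 0.0355). The Nlrc4 groups overlapped in both comparisons. The Nlrc4 call after BG was lost without PBS replicate 1, 2 or 3 or BG replicate 3 or 4, with adjusted p from 0.052 to 0.134.

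Pycard, which encodes the adaptor ASC, was lowest in uninjected WT. It read 9.32, 9.25, 9.44 and 9.39 there, 9.70, 9.71, 9.73 and 9.66 in KO and 9.59, 9.63, 9.53 and 9.52 in PBS. WT thus lay below both the knockout and the PBS-injected wild type in every array. The KO difference from WT was 0.35 (1 SE 0.050, adjusted p = 6.43e-06), and the PBS difference from WT was 0.22 (adjusted p = 0.00204). Among injected mice Pycard was higher after PGN, at 9.80, 9.91, 9.80 and 9.83 (0.27 against PBS, adjusted p = 0.00215), and after IMQ, at 9.81, 9.83, 9.93 and 9.71 (0.25, adjusted p = 0.00264). No PGN or IMQ array overlapped the PBS arrays. BG left it at 9.54 ± 0.064 (SD, n = 4), -0.030 from PBS (adjusted p = 0.646).

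Casp1, the protease that matures IL-1β and IL-18, was higher in the knockout and after BG. The WT arrays read 8.60, 8.52, 8.76 and 8.79 and the KO arrays 9.17, 9.46, 8.88 and 9.18, which did not overlap. The PBS arrays read 8.57, 8.73, 8.54 and 8.62 and the BG arrays 9.003, 9.05, 8.81 and 8.98, which did not overlap either. The differences were 0.51 in KO (1.42-fold, adjusted p = 0.000125) and 0.35 after BG (1.27-fold, adjusted p = 0.00351). After IMQ all 4 arrays, at 8.84, 8.80, 8.92 and 8.78, were above the PBS arrays, and the difference of 0.22 missed the threshold (adjusted p = 0.163).

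Il1b, which encodes the precursor of IL-1β, had the widest range of group means of the 10 genes. Its log2 signal was 8.31, 8.11, 8.19 and 8.42 in WT and 7.34, 7.28, 7.96 and 7.16 in KO, where the third array stood above the other three. It was 8.07, 7.59, 7.96 and 7.92 in PBS, 8.20, 7.68, 7.79 and 7.64 in LPS, 7.64, 7.74, 7.30 and 7.48 in PGN, 7.80, 6.95, 7.85 and 7.64 in IMQ and 6.92, 6.66, 6.62 and 6.72 in BG. The WT arrays were above all other arrays but LPS replicate 1, which lay within their range, and all BG arrays were below all others. Il1b was 2.23-fold lower after BG than after PBS (-1.16, 95% interval -1.50 to -0.82, adjusted p = 4.24e-06). It was 1.77-fold lower in KO than in WT (-0.82, 95% interval -1.16 to -0.48, adjusted p = 0.000435). PBS-injected mice averaged -0.37 from uninjected WT (adjusted p = 0.0842), a difference that missed the threshold although the arrays did not overlap. After PGN and IMQ the differences from PBS were -0.34 (adjusted p = 0.277) and -0.33 (adjusted p = 0.261).

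Il1a, which encodes IL-1α, moved the other way from Il1b in the knockout. It read 7.73, 7.86, 7.97 and 8.14 in WT and 8.89, 8.92, 8.61 and 8.47 in KO, so each KO array exceeded each WT array. The difference was 0.80 (1.74-fold, 95% interval 0.52 to 1.07, adjusted p = 5.32e-05). Il1a was also higher in PBS, at 8.53, 8.56, 8.14 and 8.22, than in WT, by 0.44 (adjusted p = 0.0148). That call was lost without WT replicate 1 (adjusted p = 0.0616) or PBS replicate 2 (adjusted p = 0.0527). After BG it read 8.19, 8.31, 7.95 and 7.88, -0.28 from PBS, and did not pass (adjusted p = 0.0911; 0.0494 without PBS replicate 3 or without BG replicate 2).

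The promoter windows of Il1a and Il1b are shown because their messages moved in opposite directions in KO. Nlrp3 was called in 4 of the comparisons with WT or PBS, as was Pycard, whose window is not shown. Of the Nlrp3 windows, only the one with the NF-κB motif match is printed. The windows are from RefSeq on GRCm38.p6 (Il1a chr2:129309923-129310222 and Il1b chr2:129371090-129371389 on the minus strand, Nlrp3 chr11:59541319-59541618 on the plus strand). Capitals mark TATAAA and TGANTCA matches in Il1a, the TATAAA match in Il1b and the NF-κB motif match in Nlrp3.
Il1a: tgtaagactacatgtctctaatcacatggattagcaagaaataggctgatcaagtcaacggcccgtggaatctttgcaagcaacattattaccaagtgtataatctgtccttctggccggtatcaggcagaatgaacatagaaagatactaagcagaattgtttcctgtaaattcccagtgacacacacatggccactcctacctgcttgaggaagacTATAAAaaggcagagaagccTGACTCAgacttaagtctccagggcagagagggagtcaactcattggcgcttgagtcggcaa
Il1b: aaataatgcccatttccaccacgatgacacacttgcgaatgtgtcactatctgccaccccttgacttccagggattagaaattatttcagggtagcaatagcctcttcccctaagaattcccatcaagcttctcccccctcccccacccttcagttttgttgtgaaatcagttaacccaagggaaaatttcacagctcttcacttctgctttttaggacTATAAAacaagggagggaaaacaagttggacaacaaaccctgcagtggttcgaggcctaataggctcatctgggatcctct
Nlrp3: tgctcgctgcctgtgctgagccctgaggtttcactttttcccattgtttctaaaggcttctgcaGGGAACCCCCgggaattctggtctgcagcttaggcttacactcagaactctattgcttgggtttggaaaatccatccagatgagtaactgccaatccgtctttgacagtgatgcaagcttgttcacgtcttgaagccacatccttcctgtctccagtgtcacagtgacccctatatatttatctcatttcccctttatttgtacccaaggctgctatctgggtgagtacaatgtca

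All 10 genes had at least 1 promoter window, 13 windows in all, and each motif was searched on both strands. TGACGTCA, the full cAMP response element that ATF family dimers can bind, was in no member's window and in 1.79% of all 32851 windows. TGACG, its first 5 letters and so part of the full element, was in a window of Nlrp3 alone, not the one printed, and in 20.8% of all windows. TGANTCA, the AP-1 motif, was in windows of Il1a and Il1rn and in 7.81% of all. The NF-κB motif was in windows of Naip5 and Nlrp3 (8.46% of all), and of the latter's windows only the one printed holds it. AGGAAG, the PU.1 core, was in windows of 7 members (35.4% of all windows), and TATAAA in those of 5, namely Il18, Il1a, Il1b, Il1rn and Naip5 (13.6%). Members are counted by gene, with a match in any of their windows, whereas the shares are of single windows. The counts and shares are thus not like for like. These matches describe letters in short windows, and no binding was measured.

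Il18 and Il1rn complete the cytokines. Il18, cut by caspase-1 as Il1b's product is, did not pass in any comparison with WT or PBS. Its differences ranged from -0.22 after BG (adjusted p = 0.082, or 0.0317 without PBS replicate 3) to 0.20 in KO (adjusted p = 0.148). Il1rn, the receptor antagonist, read 10.59, 10.58, 10.90 and 10.93 in WT and 11.03, 11.22, 11.03 and 11.31 in KO, without overlap. It was 0.40 higher in KO (1.32-fold, adjusted p = 0.00134). After BG it read 10.98, 11.11, 10.99 and 11.03 against 10.54, 10.91, 10.78 and 10.85 in PBS, again without overlap, and the difference was 0.26 (adjusted p = 0.0241). The BG call was lost without PBS replicate 1 (adjusted p = 0.12) or BG replicate 2 (adjusted p = 0.0695).

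Loss of ATF7 went with higher expression of some genes and lower expression of others. Casp1, Pycard, Il1a and Il1rn were higher and Nlrp3, Naip5 and Il1b were lower in KO than in WT, which is 7 of 10 genes where 28.3% of all genes were called. The same 7 had arrays that did not overlap (21.9% of all genes). The median absolute difference of the 10 genes was 0.37 on the log2 scale, against 0.10 over all genes tested. Of the calls over all genes, 62.3% were higher, and 78.1% with each array centred on its median. An exact two-sided permutation test over 4 against 4 arrays cannot fall below 0.0286, the value each of the 7 reached. All 7 stayed called without any 1 KO or WT array. All 7 were also called in the same direction against the PBS arrays (38.5% of all genes were called there). Against PBS, Nlrp3 (-0.32), Naip5 (-0.47), Casp1 (0.55) and Il1rn (0.38) differed by about as much as against WT. The differences of Pycard (0.13, adjusted p = 0.0396), Il1a (0.36, adjusted p = 0.0356) and Il1b (-0.45, adjusted p = 0.0333) were smaller there.

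After LPS, 3 weeks on, none of the 10 genes was called against PBS by limma, 0 had an unadjusted p below 0.05, and no gene's arrays were separate. Over all genes 9.88% were called and 17.8% had separate arrays. The differences ran from -0.21 for Il1a (95% interval -0.48 to 0.067) to 0.084 for Pycard (-0.018 to 0.19). For Nlrp3 the interval was -0.15 to 0.088 and for Casp1 -0.16 to 0.21. For Il1b it was wider, -0.40 to 0.28, so these arrays leave room for a shift of Il1b anywhere in that range. Renormalising the arrays by quantiles brought Pycard alone past the threshold (0.13, adjusted p = 0.0491). The count over all genes, 1335, was 4 without LPS replicate 2, 596 without LPS replicate 1, and 849, 172 and 440 without PBS replicates 2, 3 and 4. Of those calls 44.1% were higher, and 24.3% with centred arrays.

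After PGN 2 genes were called, Nlrp3 and Pycard, both higher. After IMQ 2 were called, Nlrp3 and Pycard, both higher, and since both comparisons use the same PBS arrays they are not independent. Over all genes 3.91% were called after PGN (2.09% higher) and 5.69% after IMQ (3.09% higher, and of the calls 54.4% higher, or 42.5% when renormalised by quantiles). The 528 calls after PGN became 283 to 341 without PBS replicate 3 or 4 or PGN replicate 1, 3 or 4, and the 769 after IMQ became 400 to 479 without PBS replicate 3 or 4 or IMQ replicate 1, 2 or 3. The median absolute difference of the 10 genes was 0.14 after PGN and 0.18 after IMQ, against 0.069 and 0.072 over all genes. Arrays were separate for 3 genes after PGN, with Naip5 (lower by 0.21, adjusted p = 0.084) as the third, and for 3 after IMQ, with Casp1 as the third (11.2% and 15.2% of all genes). Between PGN and IMQ directly, 0 of 10 members and 0.0% of all genes were called by limma, with 669 genes at an unadjusted p below 0.05. The difference between these 2 groups in Nlrp3 was -0.055, with a 95% interval of -0.17 to 0.063.

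**Figure D2:**
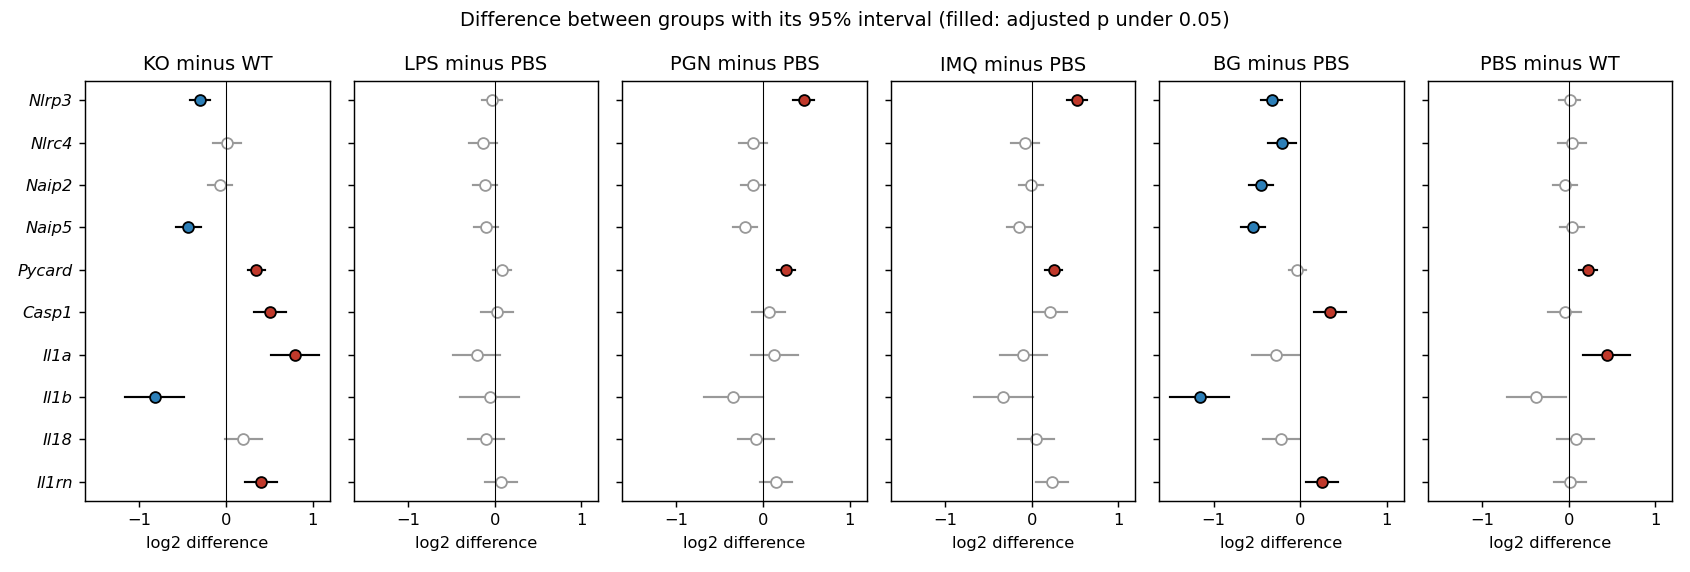
Log2 difference of each gene in the 6 comparisons, named above each panel, with its 95% interval; filled points passed an adjusted p of 0.05, red for higher and blue for lower, and open points did not. KO against WT and BG against PBS hold 7 filled points each, LPS against PBS holds 0, and the remaining 3 hold 2 each.

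β-Glucan was followed by lower sensors and Il1b with higher Casp1 and Il1rn. Nlrp3, Nlrc4, Naip2, Naip5 and Il1b were lower than after PBS and Casp1 and Il1rn higher, 7 of 10 genes where 41.6% of all genes were called. The 10 genes' median absolute difference was 0.30, against 0.14 over all genes. Arrays were separate for 6 of the 10 and for 40.7% of all genes. The knockout and BG comparisons use different control arrays. Nlrp3, Naip5 and Il1b were lower and Casp1 and Il1rn higher in both, 5 of 10 genes called in the same direction, as were 10.7% of all genes. No member was called in opposite directions, and such calls were also rare over all genes (473 of 13512), so this is not particular to the members. Nlrc4 and Naip2 were called after BG, and Pycard and Il1a in KO, with no call in the other comparison. Whether those effects differ between KO and BG was not tested.

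PBS-injected and uninjected wild-type mice differed in 2 of the 10 genes, Pycard and Il1a, both higher after PBS, where 32.7% of all genes were called and 19.7% were higher. Of the marker lists, 2 of 2 T and NK cell genes tested, 1 mast cell gene and 1 eosinophil gene were lower after PBS, 2 mesothelial and fibroblast genes were lower and 1 was higher, 2 monocyte and dendritic cell genes were lower and 1 was higher, and 1 neutrophil gene was higher. Of large peritoneal macrophage genes 2 were higher and 1 lower, and of macrophage genes 2 were higher and 1 lower. Their part in these differences was not tested. The labels give no age for uninjected mice, so injection, age and processing cannot be told apart in this comparison. The 4415 calls became 2783 and 2752 without WT replicates 1 and 2. Of all calls 60.4% were higher, and 80.5% with centred arrays. The median absolute difference of the 10 genes was 0.046, below the 0.13 over all genes. Il1a and Pycard are 2 of the genes called in KO against the same WT arrays, and the comparisons are not independent.

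The effect of the knockout was then set directly against that of LPS, as KO minus WT less LPS minus PBS. The effects differed for 6 of 10 genes, where 29.3% of all genes were called. Il1a differed by 1.003 (adjusted p = 0.000431), Il1b by -0.77 (adjusted p = 0.0169) and Casp1 by 0.48 (adjusted p = 0.00743). Naip5 differed by -0.33 (adjusted p = 0.0116), Pycard by 0.27 (adjusted p = 0.00661) and Nlrp3 by -0.27 (adjusted p = 0.0145). In each of these genes the knockout effect was the larger in size. The knockout and LPS effects use different controls, WT and PBS, which themselves differed in Pycard and Il1a. Pycard averaged 9.35 in WT, 9.57 in PBS, 9.70 in KO and 9.65 in LPS. Il1a averaged 7.92 in WT, 8.36 in PBS, 8.72 in KO and 8.16 in LPS. The PBS difference from WT thus enters these differences of effects, and its share was not tested. The Nlrp3 difference missed the threshold with centred arrays (-0.19, adjusted p = 0.088). For Il1rn the difference of 0.32 did not pass (adjusted p = 0.0554), and passed with centred arrays or without WT replicate 3 or 4, KO replicate 1 or 3, PBS replicate 1 or LPS replicate 4 (adjusted p from 0.0169 to 0.044). That of Il18, 0.30 (adjusted p = 0.11), passed with centred arrays (0.0434) or without LPS replicate 3 (0.0391).

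**Figure D3:**
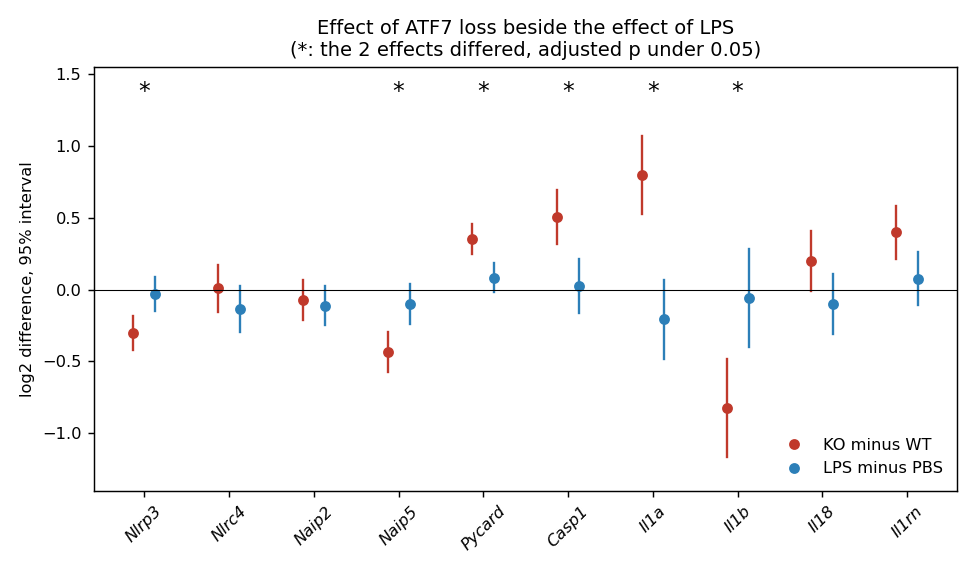
Log2 difference of each gene between KO and WT (red) and between LPS and PBS (blue) with 95% intervals; an asterisk marks the 6 genes whose effects differed at an adjusted p below 0.05. The LPS points lie between -0.21 and 0.084, and the KO points spread from -0.82 for Il1b to 0.80 for Il1a.

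The injected agents were also compared with each other, which needs no PBS arrays. LPS and BG differed in 5 of 10 genes (34.9% of all genes). Il1b was 2.14-fold higher after LPS (adjusted p = 1.06e-05), Nlrp3, Naip2 and Naip5 were higher by 0.30, 0.34 and 0.44, and Casp1 was lower by 0.32 (adjusted p = 0.00712). LPS differed from PGN in 2 genes, Nlrp3 and Pycard, where 12.1% of all genes were called in either direction. LPS differed from IMQ in 2 genes, again Nlrp3 and Pycard, where 19.2% were called in either direction. Both comparisons use the LPS arrays and are not independent. After LPS, Nlrp3 differed by -0.50 (adjusted p = 9.91e-06) from PGN and by -0.55 (adjusted p = 1.12e-06) from IMQ, and Pycard by -0.18 and -0.17. The Pycard calls were lost without LPS replicate 1 or 2, PGN replicate 2 or IMQ replicate 3 (adjusted p from 0.0502 to 0.0968), and that against IMQ also with quantile normalisation (0.0598) or with only the groups compared (0.0567).

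BG against PGN gave 7 calls (31.8% of all genes) and BG against IMQ gave 6 (36.7%). Nlrp3 had the smallest adjusted p of the 10 genes in both, 1.74-fold lower after BG than after PGN (adjusted p = 1.51e-10) and 1.80-fold lower than after IMQ (adjusted p = 2.69e-11). Il1b was 1.76-fold and 1.78-fold lower, and Naip2, Naip5 and Pycard were lower in both. Casp1 was higher and Il1a lower than after PGN, at adjusted p of 0.0186 and 0.019, and Il18 was lower than after IMQ (adjusted p = 0.0379). Each of these last 3 calls was lost when single arrays were left out. Casp1 lost it without PGN replicate 3 or 4 or BG replicate 2 (adjusted p from 0.06 to 0.066). Il1a lost it without PGN replicate 2 or BG replicate 3 or 4 (0.0625 to 0.0758). Il18 lost it without IMQ replicate 1, 3 or 4 or BG replicate 1, 3 or 4 (0.0608 to 0.12).

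Markers of other cell types differed between some of these groups too. All 7 macrophage markers were tested, 2 being higher and 3 lower in KO and 3 lower after BG. Of 11 B cell gene symbols, in which Fcmr and Faim3 name the same gene, 8 were tested, and Cr2 was at or under the floor in all arrays. In KO, 8 of the 8 tested were lower, and the summed signal of the list ran from 1680 to 2904 against 3207 to 5645 in WT. After BG, 2 of 8 were lower (2908 to 3414 against 3694 to 5252 in PBS). Of 12 neutrophil genes 6 were tested, and 5, namely Ly6g, Ngp, Retnlg, Cxcr2 and Ltf, were at or under the floor in all arrays. S100a8, S100a9 and Camp exceeded the floor in some arrays, reaching 6.76, 6.45 and 6.81 (log2 signal). Of the 6 tested, 3 were lower and 1 higher in KO (4655 to 5205 against 4883 to 5717), and 3 were lower after BG (4544 to 4848 against 5029 to 5572). Of 9 monocyte and dendritic cell genes tested, 4 were lower in KO (1901 to 2375 against 2376 to 3065), and 3 were higher and 2 lower after BG (2599 to 2708 against 2505 to 3067). Of 9 genes marking large peritoneal macrophages, 6 were lower and 1 higher after BG (7943 to 9395 against 10621 to 15771), and 4 were lower and 2 higher in KO (9844 to 11583 against 11764 to 15828). Of the T and NK cell (10 listed), mast cell (7) and eosinophil (6) genes 2 each were tested, and 5 of 6 mesothelial and fibroblast genes. In KO, 1 T and NK cell gene and 1 eosinophil gene were lower and 1 mesothelial and fibroblast gene was higher. Of the 2 eosinophil genes tested, Il5ra averaged 6.44 in KO against 7.62 in WT, and Siglecf 7.34 against 7.44. After BG, 1 mast cell gene was higher, and 1 mesothelial and fibroblast gene was higher and 1 lower. After LPS, 2 mesothelial and fibroblast genes, 1 large peritoneal macrophage gene and 1 monocyte and dendritic cell gene were higher. After IMQ, 1 macrophage gene and 1 B cell gene were higher. No marker gene tested was lower after LPS or IMQ, and none was called after PGN. Genes Cd3g, Cd3d, Cpa3, Mcpt4, Epx and Prg2 were among those at or under the floor in all arrays. The part of these cells in the differences of the 10 genes was not tested.

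The wider pathway was followed with 69 further gene symbols in 5 lists, some of them older and newer names of the same gene. Of these, 43 were measured above the floor. Over the 5 lists 21 genes were called in KO, or 11 when only the KO and WT arrays were fitted. Among caspases and pore genes, 7 of 10 were higher and 0 lower in KO, where 17.7% of all genes were higher and 10.7% lower. Mlkl, the pore former of necroptosis, was 2.03-fold higher (1.02, adjusted p = 5.7e-07), and Casp4, the mouse caspase that senses cytosolic LPS, was 1.44-fold higher (adjusted p = 0.000956). Ninj1, which ruptures the dying cell's membrane, was higher by 0.20 and Ctsb, a lysosomal protease, by 0.18. Mlkl and Ctsb were also higher in PBS than in WT, by 0.33 (adjusted p = 0.0399) and 0.084 (adjusted p = 0.04998), with overlapping arrays. Mlkl averaged 9.01 in KO, 8.32 in PBS and 7.99 in WT, and Ctsb 12.86, 12.77 and 12.68. After BG the same list split into 3 higher and 3 lower (20.2% and 21.4% of all genes). Gsdmd, the caspase-1 substrate that forms the pyroptotic pore, was 1.25-fold higher (adjusted p = 0.000101) and the necroptosis kinase Ripk3 1.42-fold higher (adjusted p = 0.00011), with Casp4 higher by 0.38. Casp8, which restrains necroptosis, was 1.28-fold lower (adjusted p = 1.86e-07). It averaged 11.11 in BG, 11.46 in PBS and 11.25 in WT, and was higher in PBS than in WT by 0.21 (adjusted p = 0.000557).

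Of 15 other sensors and regulators tested, 4 were higher and 3 lower in KO, and 5 were higher and 5 lower after BG. Over all genes the shares were 17.7% and 10.7% in KO and 20.2% and 21.4% after BG. Naip6, a further gene of the Naip cluster, was lower in both, by 0.30 in KO (adjusted p = 0.00197) and by 0.67 after BG (adjusted p = 5.95e-08). Panx1, a membrane channel, was higher in both, by 0.31 and 0.30. P2rx7, the receptor for extracellular ATP upstream of NLRP3, was higher in KO by 0.28 (adjusted p = 0.000234). P2rx7 was also higher in PBS than in WT, by 0.19 (adjusted p = 0.00725). It averaged 10.53 in KO, 10.45 in PBS and 10.26 in WT. Nek7, the kinase that NLRP3 needs to assemble, was lower after BG by 0.30 (adjusted p = 3.69e-05) and after LPS by 0.20 (adjusted p = 0.0237). Nek7 was itself higher in PBS than in WT, by 0.24 (adjusted p = 0.00119). It averaged 10.16 in WT, 10.40 in PBS, 10.20 in LPS and 10.10 in BG. LPS gave 1 higher, Nlrc5 at 0.36, and 3 lower, and IMQ gave 1 higher, Aim2, the DNA sensor, at 0.21 (adjusted p = 0.0402). Nlrc5 was also higher after BG than after PBS, by 0.31 (adjusted p = 0.00185). Nlrc5 averaged 10.11 in WT, 9.83 in PBS, 10.19 in LPS and 10.14 in BG, and was lower in PBS than in WT (-0.28, adjusted p = 0.00617). The 6 calls over the 5 lists after LPS became 0 without LPS replicate 2, 1 to 3 without LPS replicate 1 or 3 or PBS replicate 3 or 4, and 11 without LPS replicate 4. The count after IMQ, Aim2 alone, became 0 without any 1 IMQ array or without PBS replicate 3 or 4, and the count rose to 2 or 3 without PBS replicate 2 or 1. PGN gave none of the 15 (limma), and Ikbkg, a subunit of the kinase that activates NF-κB, was the single gene of all 43 called after it (-0.29, adjusted p = 0.0366), and that call was lost without PBS replicate 2, 3 or 4 or PGN replicate 1, 3 or 4.

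On the cytokine and receptor side, 10 symbols of other IL-1 family cytokines were listed, older and newer names of the same gene included. Of these, 6 had a probe set of that symbol alone, and 1, Il1f9, the gene of IL-36γ, was above the floor. It was 1.69-fold higher after BG (adjusted p = 0.00269), with overlapping arrays. Of 9 receptors and decoys 3 were tested. Il18bp, the secreted decoy of IL-18, was 1.57-fold higher in KO (adjusted p = 0.000165). Il1rap, the shared co-receptor of the family, was lower after BG by 0.28 (adjusted p = 3.06e-05) and after LPS by 0.16 (adjusted p = 0.0332). Il1rap averaged 7.89 in WT, 8.06 in PBS, 7.90 in LPS and 7.78 in BG. It was higher in PBS than in WT by 0.17 (adjusted p = 0.00883). Of 14 signalling genes tested, 5 were higher and 1 lower in KO, 3 higher and 0 lower after BG, and 0 after LPS or IMQ. Over all genes 17.7% were higher and 10.7% lower in KO, and 20.2% higher and 21.4% lower after BG. Irak2, a kinase of the receptor complex, was 1.53-fold higher in KO (adjusted p = 6.24e-09). Nfkbia, the inhibitor that holds NF-κB in the cytosol, was higher in KO by 0.36 and after BG by 0.50 (adjusted p = 0.00647 and 0.000178). It averaged 11.13 in BG, 10.62 in PBS and 10.89 in WT, and was lower in PBS than in WT (-0.27, adjusted p = 0.0376). Over the 5 lists, PBS against WT gave 9 higher and 3 lower of 43, where 32.7% of all genes were called, and these 12 calls became 7 without WT replicate 1.

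**Figure D4:**
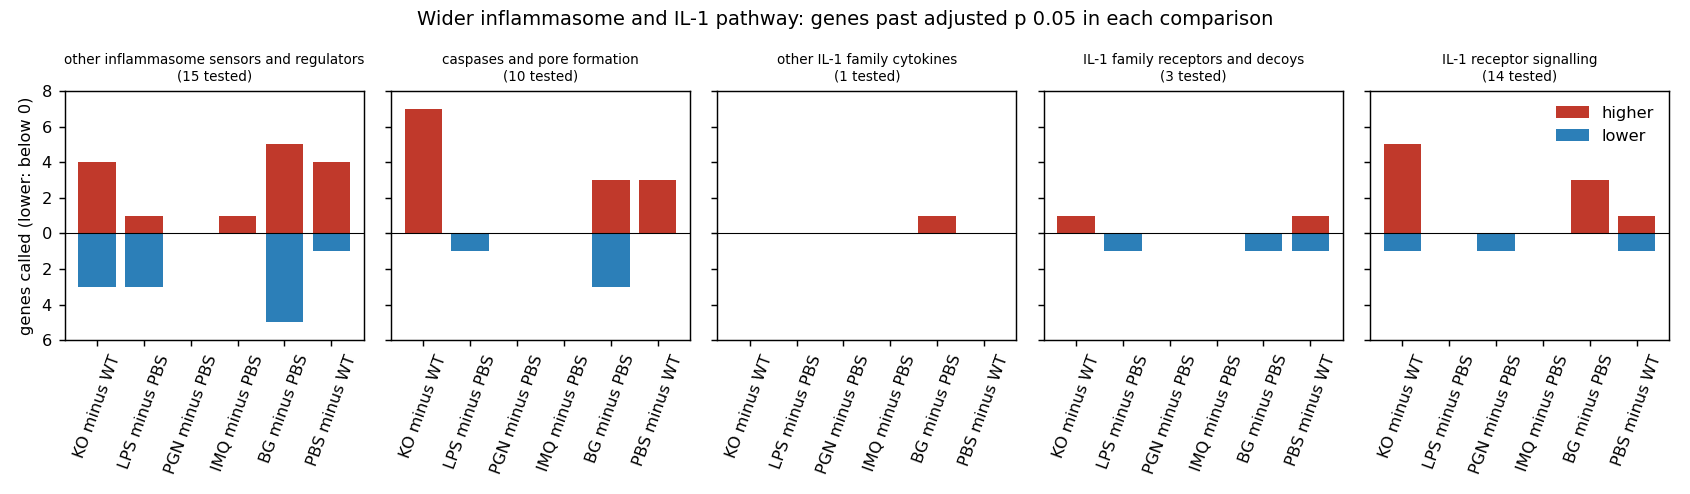
Number of genes of each wider pathway list past an adjusted p of 0.05 in the 6 comparisons, 1 panel a list with the number tested in its title; bars above 0 count genes higher and bars below 0 genes lower in the first group. The caspase and pore list has 7 higher and 0 lower in KO, and 3 higher and 3 lower after BG.

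Within the family the 10 genes did not form 1 pattern. Over the 28 arrays Casp1 and Il1rn had r = 0.80 (0.61 for deviations from group means), Naip5 and Il1b r = 0.74 (0.17) and Naip2 and Naip5 r = 0.68 (0.63). These correlations describe arrays that share groups. Among all genes tested, the nearest profile to Nlrp3 was that of Gid4 (r = 0.94), that of Naip2 was Zfp110 (0.94), and those of Naip5 were Gpcpd1 (0.93) and Naip6 (0.92). Casp1 was nearest to Tbk1 (0.93), a kinase of interferon signalling, Il1b to Thbs1 (0.90), which encodes thrombospondin-1, and Hif1a (0.90), which encodes the oxygen-regulated transcription factor. Il1a was nearest to Akip1 (0.86), Il1rn to A530064D06Rik (0.88), Pycard to Ndufb9 (0.89), Nlrc4 to Usp8 (0.82) and Il18 to Nbas (0.83). In the test over all 7 groups, 8 of the 10 genes differed somewhere (74.3% of all genes), Nlrc4 (adjusted p = 0.187) and Il18 (adjusted p = 0.0681) being the ones that did not pass. Il18 passed with centred arrays (0.0417), with quantile normalisation (0.0423), and without WT replicate 2, KO replicate 1, PBS replicate 3, LPS replicate 3 or PGN replicate 2 (adjusted p from 0.0267 to 0.0432).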

How the data were processed

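RNA (100 ng) from 28 samples was hybridised to Affymetrix mouse gene arrays. Per the submitters' processing notes, the authors summarised probe sets with RMA in Affymetrix Expression Console, and no versions or genome build are given in the sources used here. The deposited values are linear signal intensity, from 3.59 to 16646, and log2 was taken here. Array medians lay between 107 and 115, so depth has no meaning here and the number of arrays limits the precision. Of 35556 probe sets, 21789 had 1 gene symbol in the platform table, 1621 several and 12146 none; those without a single symbol were not used. The floor, 6.32 (log2), was the 95th percentile of the mean of 1210 probe sets of olfactory and vomeronasal receptor genes. A probe set had to exceed it in 4 arrays, and the brightest per gene was kept.

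All 28 arrays entered 1 linear model without intercept, with a coefficient for each group, in limma 3.58.1 under R 4.3.3 (lmFit, contrasts, eBayes with trend), with Benjamini-Hochberg adjustment over 13512 genes within each comparison, and tested on simulated data. Tables were made with Python 3.11.15 and figures with matplotlib 3.10.9. Groups and replicates come from the sample titles, which give no scan date or batch. All 10 members are described. Other pathway genes named come from the 4 of lowest p per list and comparison among those called, and not all of these are named. Nearest profiles are by Pearson's r over 28 arrays. The members and lists were chosen with earlier results of these data known. Alternatives were another filter, none, median centring, quantile normalisation, only the groups compared, a replicate block, leaving out each array and, added after seeing the data, KO against PBS.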

Additional observations from a re-analysis of the deposited data

Results flagged for a closer look

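6 of the 10 genes were flagged because the knockout effect (KO minus WT) differed from the LPS effect (LPS minus PBS) in a direct test with limma. Over all genes tested, 29.3% were called in that test. On the log2 scale the difference of the effects was 1.003 for Il1a (KO 0.80, LPS -0.21, adjusted p = 0.000431), -0.77 for Il1b (KO -0.82, LPS -0.056, adjusted p = 0.0169) and 0.48 for Casp1 (KO 0.51, LPS 0.025, adjusted p = 0.00743). It was -0.33 for Naip5 (adjusted p = 0.0116), 0.27 for Pycard (adjusted p = 0.00661) and -0.27 for Nlrp3 (adjusted p = 0.0145). The Nlrp3 difference missed the threshold with centred arrays (adjusted p = 0.088). The knockout and LPS effects use different controls, and Pycard and Il1a were higher in PBS than in WT, which enters their differences of effects.

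An array stood apart within its group. Naip2 read 10.74 in IMQ replicate 3 and 10.82 to 10.83 in the other three IMQ arrays. It was the only such value among 70 groups of 4 arrays tested (10 genes in 7 groups). By chance the rule flags about 1 in 20 groups, so this 1 value is fewer than chance would give.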

How the results depend on the processing

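Small shifts in genes with wide spread, such as Il1b and Il1a, cannot be seen with 4 arrays a group. Each gene rests on 1 probe set, and no scan or batch record was used. In KO against WT the same 7 calls held under every alternative run.

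Counts over all genes fitted with only the groups compared were 2409 for KO against WT (3830), 508 for LPS (1335), 272 for PGN (528) and 2066 for PBS against WT (4415), and over the wider lists 11 (21), 1 (6) and 5 (12) for KO, LPS and PBS against WT; fewer arrays then estimate the spread. Quantile normalisation gave 861 calls over all genes and 1 member after LPS, and 2 and 5 calls in the wider lists after PGN and IMQ (1 each), which became 0 with centring, and for IMQ also 0 with no filter. Leaving out 1 array at a time gave calls over all genes of 4 to 1558 (LPS), 283 to 483 (PGN), 400 to 758 (IMQ) and 2752 to 5306 (PBS and WT); wider-list calls of 0 to 11 (LPS), 0 to 1 (PGN), 0 to 3 (IMQ) and 7 to 16 (PBS and WT); member calls of 1 to 2 (PBS and WT). Differences near 0 that never passed changed sign: In KO and WT, the range over left-out arrays was Nlrc4 -0.055 to 0.055. In LPS, the range over left-out arrays was Nlrp3 -0.061 to 0.0074, Casp1 -0.028 to 0.074, Il1b -0.18 to 0.0064 and Il1rn -0.0025 to 0.12. In PGN, the range over left-out arrays was Casp1 -0.0062 to 0.10. In IMQ, the range over left-out arrays was Naip2 -0.027 to 0.033 and Il18 -0.021 to 0.10. In PBS and WT, the range over left-out arrays was Nlrp3 -0.0061 to 0.031, Nlrc4 -0.025 to 0.084, Naip2 -0.088 to 0.0070, Naip5 -0.012 to 0.078, Il18 -0.0086 to 0.15 and Il1rn -0.036 to 0.098. In the KO and LPS difference, the range over left-out arrays was Naip2 -0.024 to 0.095. With quantile normalisation the value was -0.018 for Nlrc4 (KO and WT), 0.017 for Nlrp3 (LPS), -0.057 for Nlrp3 (PBS and WT), -0.021 for Nlrc4 (PBS and WT), -0.012 for Il1rn (PBS and WT) and -0.014 for Naip2 (the KO and LPS difference). Against the PBS arrays KO read -0.029 for Nlrc4. With centring the value was -0.0060 for Casp1 (LPS), 0.0076 for Naip2 (PBS and WT) and 0.0050 for Casp1 (PBS and WT).

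The labels do not say whether replicate numbers pair the samples. Correlations of same-numbered arrays' deviations from group means ran from -0.35 to 0.45 over the 6 comparisons. From 1 to 6 of 8 arrays correlated best with their own number. The 6 were for PGN and PBS (r from 0.048 to 0.26), so this check does not settle whether samples were paired. With the replicate block the members called were 7 (KO), 0 (LPS), 2 (PGN), 2 (IMQ), 7 (BG) and 2 (PBS against WT), and all genes called 3845, 1438, 508, 765, 5667 and 4415. The block brought the KO and LPS difference of Il1rn past the threshold (adjusted p = 0.0454), as did centring (0.0189), and ended the call of Il18 between BG and IMQ (0.0501). With only the groups compared, Casp1 passed after IMQ (0.0424), Il18 after BG (0.0461) and Il1b between PBS and WT (0.0346), and Pycard no longer passed between LPS and IMQ (0.0567). Naip5 passed after PGN with quantile normalisation (0.0347).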
